A study of Mus musculus with 6 samples.

Results

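Granulosa cells (GCs) enclose the oocyte in the ovarian follicle, and cultures of them can hold RNA of oocytes. The transcripts described here were 8 genes known from the oocyte, *Gdf9*, *Bmp15*, *Zp1*, *Zp2*, *Zp3*, *Nlrp14*, *Oosp1* and *Kit*, of the 16300 genes in the deposited RNA-seq table. They were chosen by name, with their levels in these libraries known and with the second DHT library known as the lowest, so their levels and group differences are given as a description without a test. All 8 were in the table and all 8 had a mean of at least 10 normalized counts, the filter used for the comparison across genes. Nearly all genes of the table, 16292 of 16300, passed that filter, and the lowest mean in it was 10.2 reads. A gene that is not in the table may therefore be expressed at a lower level. The 6 libraries came from cultured GCs, with 3 control libraries and 3 after treatment with dihydrotestosterone (DHT), an androgen that is not converted to estrogen. Both groups came from wild type C57BL/6J mice aged 8 to 9 weeks. GCs were collected on the day of estrus by puncturing the ovary with a needle, pooled from 5 mice for each experiment, cultured for 48 h with serum and kept for 4 h without serum. Control cells then received medium and DHT cells 25 nM DHT for 24 h. A puncture of this kind is no sort for one cell type, and the labels describe the extracted material as whole ovary in their protocol text and as GCs in their titles. The treatment protocol in the labels mentions DHT even for control samples, so the treatment characteristic was used to set the groups.

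The oocyte and its GCs signal to each other throughout follicle growth. The oocyte secretes GDF9 and BMP15, 2 related growth factors of the TGF-beta family that act on receptors of GCs, and it builds the zona pellucida, the glycoprotein coat made of ZP1, ZP2 and ZP3 that sperm bind. NLRP14 belongs to a family of NLR proteins that is expanded in oocytes, and OOSP1 is a protein secreted by the oocyte. KIT, the receptor tyrosine kinase on the oocyte surface, receives KIT ligand (*Kitl*) from GCs, and unlike the other members *Kit* is also made by theca, interstitial and other somatic cells.

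All 8 genes are protein coding, and in the GENCODE annotation of GRCm38 no exon of any of them overlapped an exon of another gene. *Gdf9* lies at chr11:53431023-53437904 on the plus strand, with 2031 bp of merged exons. *Bmp15* is on the X chromosome at chrX:6314107-6320721 (minus strand, 3060 bp). The zona genes are at chr19:10914287-10920632 for *Zp1* (minus strand, 1981 bp), chr7:120126772-120145291 for *Zp2* (minus strand, 2724 bp) and chr5:135980099-135988624 for *Zp3* (plus strand, 1323 bp). *Nlrp14* was annotated at chr7:107166990-107198102 (plus strand, 3537 bp) and *Oosp1* at chr19:11667460-11691150 (minus strand, 972 bp). *Kit* spans chr5:75574916-75656722 on the plus strand and has the longest merged exons of the 8, 8911 bp. The counted reads thus came from 5 chromosomes, and *Zp1* with *Oosp1*, *Zp2* with *Nlrp14* and *Zp3* with *Kit* share one.

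Upstream sequence is shown as a description of the genes and not as an account of their levels across libraries. The zona genes and other oocyte genes are known targets of FIGLA, a basic helix-loop-helix factor that binds E-boxes (CANNTG). RefSeq promoter windows on GRCm38.p6 were matched for 4 of the 8 members, *Bmp15*, *Zp3*, *Oosp1* and *Kit*. *Gdf9*, *Zp1*, *Zp2* and *Nlrp14* had no entry in the table used. The sequences run 5′ to 3′ on the strand of the gene through the 250 bases before the RefSeq start, and bases inside the GENCODE gene were left out, which were 6 for *Zp3*, 99 for *Oosp1* and 71 for *Kit*. Capitals mark each E-box, whose letters read the same on both strands, so that 1 search covered both.
Bmp15 (chrX:6320725-6320974, minus strand): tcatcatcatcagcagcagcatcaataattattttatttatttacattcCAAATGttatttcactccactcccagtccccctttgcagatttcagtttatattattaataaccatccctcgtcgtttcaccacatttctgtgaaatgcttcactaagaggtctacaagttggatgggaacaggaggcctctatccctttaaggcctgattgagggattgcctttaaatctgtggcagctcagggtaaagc
Zp3 (chr5:135979855-135980098, plus strand): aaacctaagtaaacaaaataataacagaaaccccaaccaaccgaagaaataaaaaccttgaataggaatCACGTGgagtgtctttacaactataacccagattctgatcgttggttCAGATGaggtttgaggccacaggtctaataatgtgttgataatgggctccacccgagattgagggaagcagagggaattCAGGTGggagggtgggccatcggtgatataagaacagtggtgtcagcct
Oosp1 (chr19:11691151-11691301, minus strand): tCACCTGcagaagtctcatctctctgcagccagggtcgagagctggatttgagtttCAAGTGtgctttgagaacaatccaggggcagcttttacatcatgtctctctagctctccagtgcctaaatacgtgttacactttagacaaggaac
Kit (chr5:75574737-75574915, plus strand): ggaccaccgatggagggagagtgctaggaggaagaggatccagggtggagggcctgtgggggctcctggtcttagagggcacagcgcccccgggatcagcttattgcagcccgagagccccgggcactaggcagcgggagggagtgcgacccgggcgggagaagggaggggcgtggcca

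In the full windows of 250 bases, *Bmp15* held 1 E-box, 201 bases before the start, and *Zp3* held 3, at 181, 134 and 55 bases. *Oosp1* held 5, of which 2 are shown above and 3 lie inside the GENCODE gene. The letters CANNTG did not occur in the window of *Kit*. At least 1 E-box was present in 66.0% of the 27025 promoter windows of the same length, and in 40 of the 48 windows matched for the other oocyte genes listed below. A TATAAA box, searched on both strands, was found in *Bmp15* alone of the 4, and in 13.0% of all windows. These matches describe letters and say nothing of binding in these cells.

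The libraries held 36111177 to 41928585 reads counted on genes. The deposited values, normalized counts, are reads scaled by a size factor for each library, and 1 read was worth 0.926 to 1.09 normalized counts. Intervals given for single libraries are exact 95% Poisson intervals of the reads and cover counting error only. A gene with 0 reads was read as at most 3 reads, or 3.27 normalized counts in DHT replicate 2. At n = 3 against 3, the smallest p of an exact permutation test is 0.1. Control and DHT libraries share replicate numbers, but nothing in the labels says that they share cells.

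*Gdf9* and *Bmp15*, the growth factors of the oocyte, were read in all 6 libraries and were lowest in DHT replicate 2. *Gdf9* had 257, 121 and 87.1 normalized counts in control replicates 1, 2 and 3, and 182, 28.4 and 177 in DHT replicates 1, 2 and 3. DHT replicate 2 was at 32.6% of the next lowest library (95% interval 20.2% to 50.7%), and the other 5 libraries spanned 2.95-fold. The means were 155 ± 90.1 (SD, n = 3) in control and 129 ± 87.4 in DHT cells, and the groups overlapped. For *Bmp15* the levels were 139.5, 31.6 and 22.2 in the control libraries and 65.6, 2.18 and 63.1 in the DHT libraries. The 2.18 stands for 2 reads, with an interval from 0.264 to 7.88 normalized counts. Control replicate 1 held 6.27 times the *Bmp15* of control replicate 3, and no member spanned a wider range outside DHT replicate 2.

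The transcripts of the zona pellucida were nearly absent from DHT replicate 2 and present in every other library. *Zp1* was at 53.4, 17.7 and 17.6 in control and at 43.1, 2.18 and 63.1 in DHT replicates 1 to 3. *Zp2*, the most abundant of the 3 by normalized count, was at 151, 61.3 and 104 in control and at 115, 2.18 and 113 in DHT libraries, so that DHT replicate 2 held 3.56% of the next lowest library (0.422% to 13.4%). *Zp3* reached 104, 38.1 and 41.7 in control libraries and 78.3 and 96.9 in DHT replicates 1 and 3. In DHT replicate 2 no read of *Zp3* was counted, which by the floor of 3 reads puts the next lowest library at least 11.6-fold higher; with the counting error of both libraries, the exact interval of the ratio allows DHT replicate 2 up to 11.1% of it. Together the 3 genes had 4 reads in DHT replicate 2. Their control and DHT groups overlapped in each case, with means of 105 ± 45.1 in control against 76.9 ± 64.8 in DHT for *Zp2* (SD, n = 3).

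*Nlrp14* and *Oosp1* were absent from the reads of DHT replicate 2. The level of *Nlrp14* was 129.6, 65.0 and 79.7 in control replicates 1, 2 and 3, and 134 and 165 in DHT replicates 1 and 3. DHT replicate 2 had 0 reads, and every other library was at least 19.9-fold above the 3 reads that a count of 0 allows (exact interval up to 6.35% of the next lowest). *Nlrp14* and *Zp1* were the 2 members highest in DHT replicate 3, whereas 5 members were highest in control replicate 1. *Oosp1*, the lowest member, was at 46.5, 17.7 and 7.41 in control and at 24.5, 0 and 17.4 in DHT libraries. At 8 to 47 reads in the other 5 libraries its counting intervals were wide, and none of its neighbouring libraries in order of level were separated by them. The 0 of DHT replicate 2 placed the next lowest library, with 8 reads, at least 2.26-fold above it by the floor of 3 reads, but the exact interval allows up to 69.0% of that library.

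*Kit* did not share the pattern. Its levels were 271, 496 and 727 in control replicates 1, 2 and 3, and 732, 499 and 596 in DHT replicates 1, 2 and 3. DHT replicate 2 was thus close to control replicate 2, and the lowest library was control replicate 1, in which 5 of the other 7 members were highest. The interval of *Kit* in DHT replicate 2, 454 to 546, left out every library other than control replicate 2, whose own interval overlapped it. Sums over members below leave *Kit* out. Of the theca and interstitial markers, 8 of 10 were in the table. Their summed levels, 145572 to 166079 in control and 135523 to 139678 in DHT libraries, were mostly *Aldh1a1*, at 123549 to 155949, while *Gli1* (12.1 to 33.8) and *Lhcgr* (12.1 to 95.8) were low. *Cyp17a1* and *Insl3*, the defining markers of steroidogenic theca cells, were not among the 16300 genes, whose lowest mean was 10.2 reads. The part of these cells in the level of *Kit* was not tested.

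**Figure D1:**
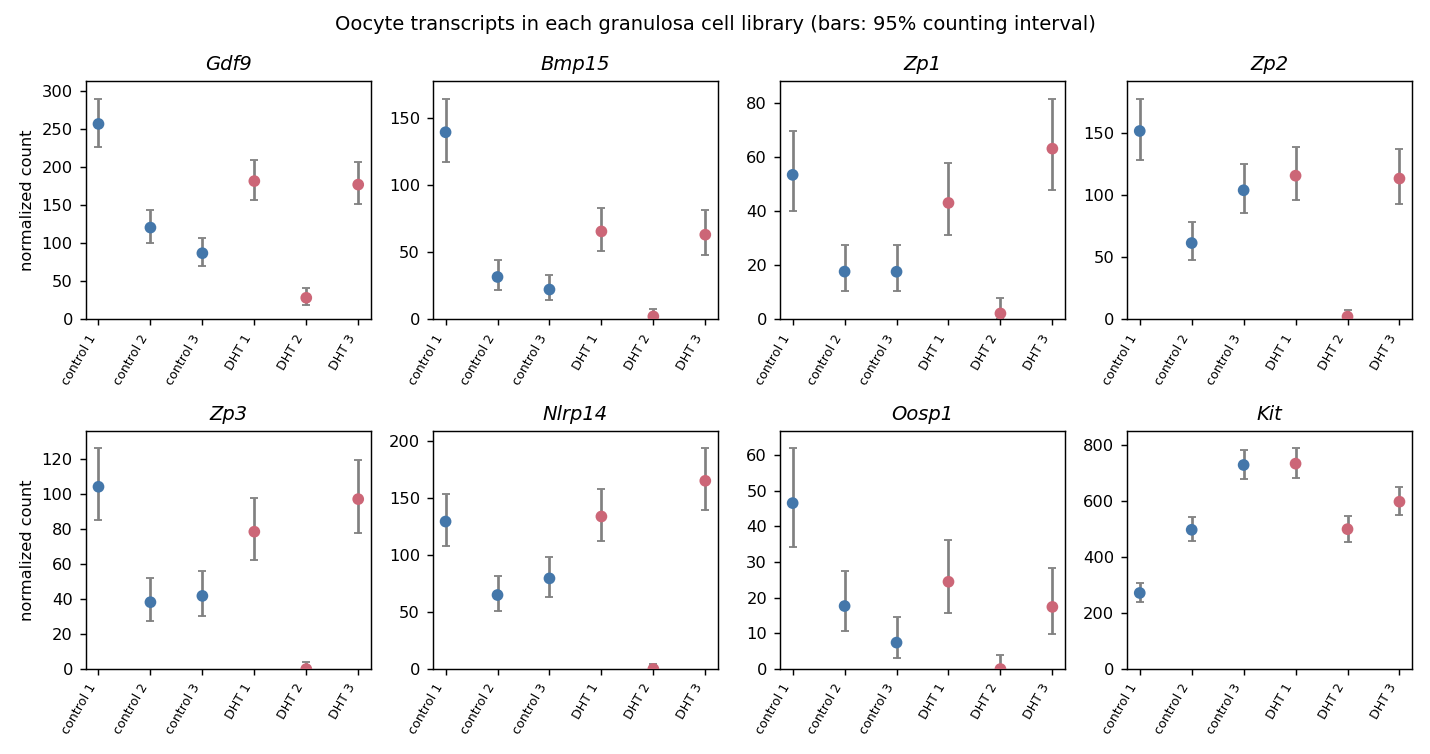
Normalized counts (vertical axes, linear and starting at 0) of the 8 genes in the 6 libraries (horizontal axes); points are single libraries, blue for control and red for DHT, and bars are exact 95% Poisson intervals of the reads. DHT replicate 2 is the lowest library of 7 genes, while *Kit* in that library, at 499, is close to the 496 of control replicate 2.

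Per length, the levels of the members overlapped between libraries, and their order changed from one library to another. Over the 5 libraries other than DHT replicate 2, the mean level per kilobase of exons was 81.2 normalized counts for *Gdf9*, 63.4 for *Kit*, 54.2 for *Zp3*, 40.0 for *Zp2*, 32.4 for *Nlrp14*, 23.3 for *Oosp1*, 21.0 for *Bmp15* and 19.7 for *Zp1*. On this scale *Zp3* was above *Zp2*, the reverse of their order by count, since the exons of *Zp3* are shorter. *Oosp1*, lowest by count, was above *Bmp15* and *Zp1* per kilobase. *Kit* was above *Gdf9* in control replicate 3 (81.6 against 42.9) and below it in control replicate 1 (30.4 against 127), and the means of *Oosp1*, *Bmp15* and *Zp1* lay within the spread that each showed between libraries.

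Summed over the 7 members without *Kit*, the oocyte transcripts amounted to 882 normalized counts in control replicate 1, 352 in control replicate 2 and 359 in control replicate 3. DHT replicates 1, 2 and 3 held 643, 34.9 and 696. In RPM, reads scaled to the counted reads of the library, these were 23.2, 9.16 and 9.25 for control and 16.5, 0.886 and 17.7 for DHT libraries, so the 7 genes were a trace of each library. A control library had the highest sum, the other 2 control libraries were below DHT replicates 1 and 3, and DHT replicate 2 was lowest. An effect of treatment on the sums was not tested. DHT replicate 2, with 32 reads, had 9.91% of the next lowest sum, and control replicate 1 was 25.3-fold above it. The other 5 libraries spanned 2.503-fold. The group means were 531 ± 304 in control and 458 ± 367 in DHT cells (SD, n = 3), and without DHT replicate 2 the DHT mean was 669.7. In bulk RNA, fewer oocytes and less RNA per oocyte cannot be told apart. Whether oocytes were collected along with the GCs was not tested.

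Shares among the 7 genes, which do not use the total, differed between libraries for some members also outside DHT replicate 2. In the other 5 libraries *Gdf9* took 24.2% to 34.3% of the summed reads, *Nlrp14* 14.7% to 23.75% and *Zp3* 10.8% to 13.9%. *Zp2* took 28.9% in control replicate 3 (exact binomial 95% interval 24.4% to 33.7%) and 16.25% to 18.0% in the other 4. *Bmp15* varied from 6.19% in control replicate 3 (interval up to 9.06%) to 15.8% in control replicate 1 (13.5% to 18.4%), so these intervals did not overlap. The share of *Zp1* ran from 4.90% to 9.06% and *Oosp1* from 2.06% to 5.27%. The ratio of *Gdf9* to *Bmp15* reads was 1.84 in control replicate 1 (exact 95% interval 1.496 to 2.28) and 2.78 to 3.92 in the other 4 of these libraries, and the intervals of control replicates 2 and 3 did not reach 2.28. *Zp3* reads were 0.402 to 0.856 of *Zp2* reads, and *Zp1* reads were 0.170 to 0.558 of them, both lowest in control replicate 3 and highest in DHT replicate 3. In DHT replicate 2, *Gdf9* made up 26 of the 32 reads, or 81.25% (exact binomial 95% interval 63.6% to 92.8%), outside its range in every other library, while *Nlrp14* and *Zp3* were at 0 of 32, which allows shares of up to 10.9%. Relative to the next lowest library, *Gdf9* in DHT replicate 2 was at 32.6%, while *Bmp15*, *Zp1* and *Zp2* were at 9.81%, 12.4% and 3.56%. With 2 reads each, the intervals of *Bmp15* and *Zp1* reached 39.5% and 51.4%, and that of *Oosp1*, with 0 reads, reached 69.0%, so their order is not resolved. Whether the remaining *Gdf9* reads came from another cell was not tested.

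The differences between groups were of the size of their standard errors. On the log2(value + 1) scale, DHT minus control was -0.51 (SE 0.67) for *Gdf9* and -0.99 (SE 1.12) for *Bmp15*. The zona genes were at -0.36 (SE 0.99) for *Zp1*, -1.52 (SE 1.19) for *Zp2* and -1.50 (SE 1.48) for *Zp3*. *Nlrp14* was at -1.65 (SE 1.63) and *Oosp1* at -1.33 (SE 1.13). All 7 differences were negative on this scale, and without DHT replicate 2 all 7 were positive, from 0.15 for *Oosp1* to 0.997 for *Zp1*, so that their median moved from -1.33 to 0.46. By the count models the median was closer to 0, at -0.25 by edgeR and -0.26 by DESeq2, and the difference was positive with all 6 libraries for *Nlrp14* (0.14 by edgeR and 0.13 by DESeq2) and *Zp1* (0.31 and 0.29). On the log2(value + 1) scale, *Zp1* was also positive, at 0.16, without control replicate 1. *Kit*, at 0.38 (SE 0.30), was positive in both cases, with 0.52 without DHT replicate 2 and 0.0018 without control replicate 1. None of the 8 had groups without overlap, against 15.9% of all tested genes with every DHT library above every control library and 14.7% with every DHT library below. In the fit across 16292 genes, limma called 6.52% of genes higher and 4.66% lower in DHT cells (adjusted p up to 0.05). It called 0 of the 8 members, and 0 also at an unadjusted p up to 0.05. As these genes were selected on their levels in these libraries, nothing is read from those counts.

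**Figure D2:**
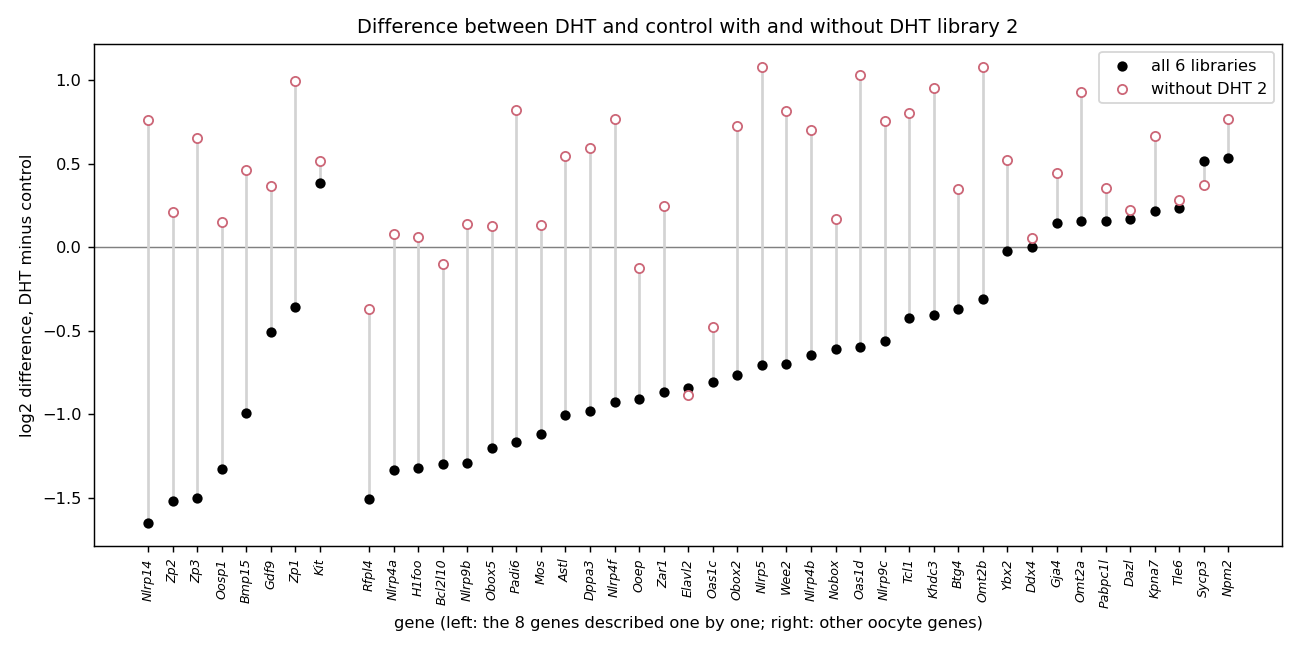
Log2 difference between DHT and control (vertical axis, log2(normalized count + 1), DHT minus control) for the 8 genes on the left and 36 other oocyte genes on the right (horizontal axis). Filled points use all 6 libraries and open points leave out DHT replicate 2; the 7 members other than *Kit* move from below 0 to above 0, as the median of the other oocyte genes does, from -0.67 to 0.41.

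Genes of 5 further oocyte lists, none of them members, showed the same low library. Of 56 genes, 36 were in the table and all 36 were tested. They were lowest in DHT replicate 2 in 29 cases (80.6%), against 13.7% of all 16300 genes, and 15 of them had 0 reads there. Because the lists were drawn up with the low level in that library known, these counts are a description and not independent evidence. *Figla* was not in the table. The transcription factor list had 3 of 11 genes in the table (*Nobox*, *Obox2* and *Obox5*), and all 3 were lowest in DHT replicate 2. Of the subcortical and NLRP genes, 9 of 10 were lowest there, and of the surface and secreted genes 6 of 7. The cell cycle and chromatin genes followed in 7 of 9 cases, and the RNA regulation and germline genes in 4 of 7.

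*Padi6* and *Nlrp5* encode parts of the cytoplasmic lattices and subcortical complex of the oocyte. *Padi6* was at 114, 40.9 and 83.4 in control and at 144, 1.09 and 118 in DHT libraries, and *Nlrp5* at 61.3, 19.5 and 51.0 in control and at 81.2, 1.09 and 88.1 in DHT. Both had 1 read in DHT replicate 2. *Npm2*, a histone chaperone of the egg, had 55 reads in that library and 36 to 107 in the others. *Ddx4*, a germline RNA helicase, ranged from 67.8 to 87.1 over all 6 libraries, with 73.1 in DHT replicate 2. *Tle6*, a partner of NLRP5 in the subcortical complex, was far more abundant than the other listed genes at 902 to 1281, with 1114 in DHT replicate 2. These last 3 genes thus did not carry the low level of that library, and their source in the cultures was not tested.

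By the comparison of groups, 0 of the 36 genes rose and 1 fell, against 6.52% and 4.66% of all tested genes. Their median log2 difference was -0.67, against -0.005 over all genes tested, and 27 of the 36 were negative. Without DHT replicate 2, 31 of the 36 were positive. The median standard error was 0.94 for these genes and 0.078 for all genes. *Elavl2*, an RNA-binding protein of oocytes and neurons, was the gene that fell, from 169, 149 and 235 in control to 121, 106 and 78.4 in DHT libraries, a log2 difference of -0.85 (SE 0.21; limma adjusted p = 0.032). Its groups did not overlap, and it was lowest in DHT replicate 3. The call was lost without control replicate 1 (adjusted p = 0.057), control replicate 3 (0.059), DHT replicate 2 (0.083) or DHT replicate 3 (0.11), and the log2 difference without DHT replicate 2 was -0.88.

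**Figure D3:**
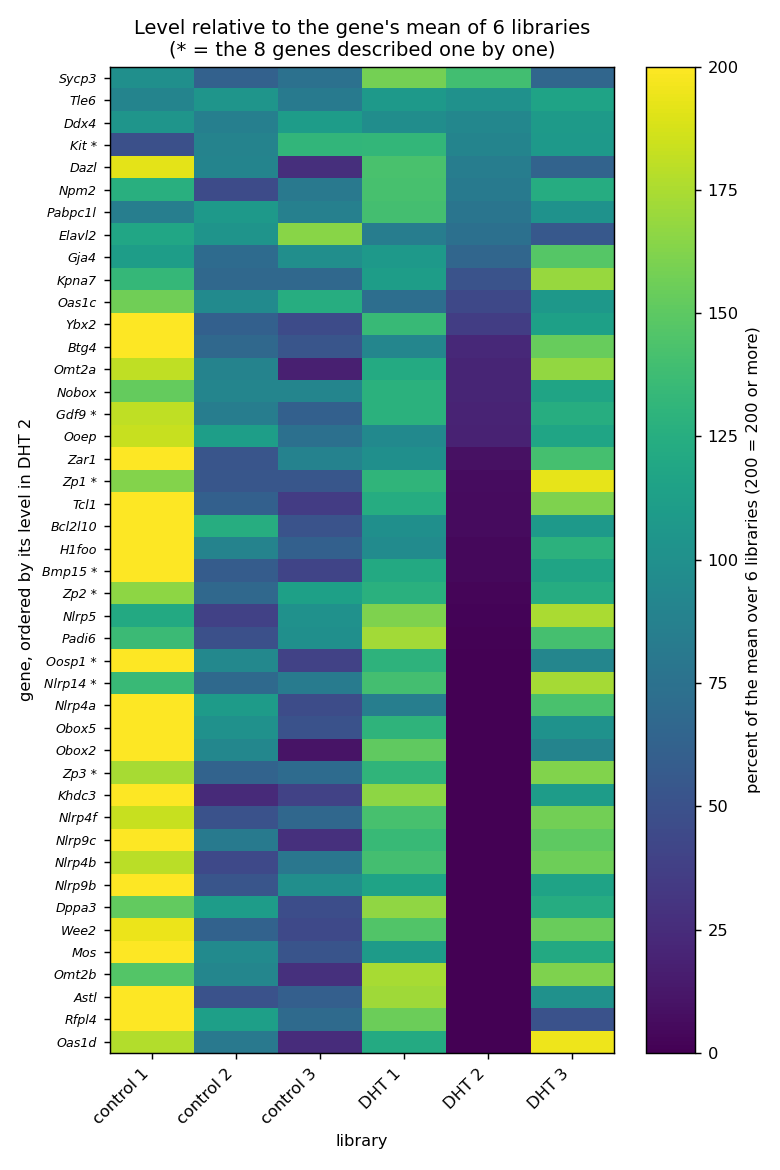
Level of each of the 8 members (starred) and the 36 other oocyte genes (vertical axis) in each library (horizontal axis), as a percent of the mean of the gene over the 6 libraries, with 200 standing for 200 or more. Genes are ordered by their level in DHT replicate 2, whose column is near 0 for most genes, whereas *Sycp3*, *Tle6*, *Ddx4* and *Kit* at the top are not low there.

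A search over the whole table for genes depleted in a single library named mainly DHT replicate 2. A gene was counted where 1 library held at most 10% of the next lowest, with the other 5 above 0. DHT replicate 2 had 50 such genes, control replicate 3 and DHT replicate 3 had 1 each, and the other 3 libraries had none. Of the 50 genes, 5 were members (*Nlrp14*, *Zp2*, *Zp3*, *Bmp15* and *Oosp1*), 18 belonged to the 5 other oocyte lists and 27 to neither. Most of them rest on 0 to 2 reads against a low next level: with fewer than 3 reads taken as 3, 5 of the 50 remained at or below 10%, the members *Nlrp14*, *Zp2* and *Zp3*, *Padi6* of the oocyte lists and *Khdc1b* of neither, and in the other 5 libraries 0 genes did. Ordered by the lowest level in the other 5 libraries, the first of the 27 was *Khdc1b*, with 41.8 to 113 in the other libraries and 1 read in DHT replicate 2, followed by *Oas1e*, *Elobl* and *Ccno*. The genes of neither list are named from this search, after their values were seen.

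The pattern over libraries was also compared with every other gene with a mean of at least 50, by the Pearson correlation of log2(value + 1) with the log2 of the summed level of the 7 members. Of 12699 genes, 15 (0.118%) reached 0.95 over the 6 libraries. The 10 most alike were *Khdc1b* (r = 0.997), *Aarsd1* (0.989), *Wdr55* (0.985), *Padi6* (0.980), *Hoxb4* (0.973), *Nup43* (0.971), *Gpn3* (0.969), *Nlrp5* (0.966), *Ints4* (0.960) and *Igf2bp2* (0.958). *Khdc1b*, *Padi6* and *Nlrp5* were at 1 read in DHT replicate 2, whereas *Wdr55* moved only from 998 in that library to 1091 in control replicate 1, so a high r does not mean a change of like size. The members themselves, each part of the sum, had r of 0.968 to 0.996, and *Kit*, outside it, had -0.088. All 6 points share the libraries and their depths, and 1 of them, DHT replicate 2, stands far from the rest.

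Markers of the somatic cells did not share the drop in DHT replicate 2. The 13 granulosa markers found, of 14 listed, summed to 295985 to 307030 normalized counts in control and 312472 to 326606 in DHT libraries, with DHT replicate 2 highest. *Cyp19a1*, the aromatase of GCs, was not in the table. The most abundant marker, *Cyp11a1*, was at 128662 in DHT replicate 2 and 80557 to 132928 in the others. *Gja1*, the gap junction protein between GCs, was at 74856 in DHT replicate 2 and 67758 to 76268 in the others. Endothelial markers (5 of 8 in the table) summed to 166 to 231, immune markers (5 of 10) to 242 to 303 and surface epithelium markers (9 of 9) to 3331 to 4882, and no gene of these lists had 0 reads in DHT replicate 2. The defining markers *Pecam1* (44.5 to 74.0) and *Ptprc* (5.94 to 15.7) were low in all 6 libraries. Of the 8 theca and interstitial markers found, limma called 2 higher and 0 lower, against 6.52% and 4.66% of all tested genes. These were *Acta2* and *Myh11*, genes of contractile cells, with log2 differences of 0.76 (SE 0.13) and 0.67 (SE 0.13). *Lhcgr* (1.38) and *Gli1* (0.47) were also positive, while *Dcn* (-1.05), *Aldh1a1* (-0.23), *Ptch1* (-0.19) and *Col1a1* (-0.13) were negative. Of the 5 immune markers found, 0 were called higher and 1 lower, *Csf1r*, a receptor of macrophages, at -0.64 (SE 0.15). *Cd68* was at -0.07, while *Ptprc* (0.72), *Ms4a2* (0.73) and *Cd14* (0.23) were positive. Nothing particular to either list is read from these counts. Without the intensity trend the calls of *Acta2* (adjusted p = 0.066) and *Myh11* (0.072) were lost. Those of *Myh11* and *Csf1r* were lost without DHT replicate 2 (adjusted p = 0.059 and 0.098) or DHT replicate 3 (0.063 and 0.1), and that of *Csf1r* also without control replicate 1 (0.087). Only 1 of the 40 genes of the granulosa, theca, endothelial, immune and surface epithelium lists was lowest in that library, *Amh*, which is described further below.

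**Figure D4:**
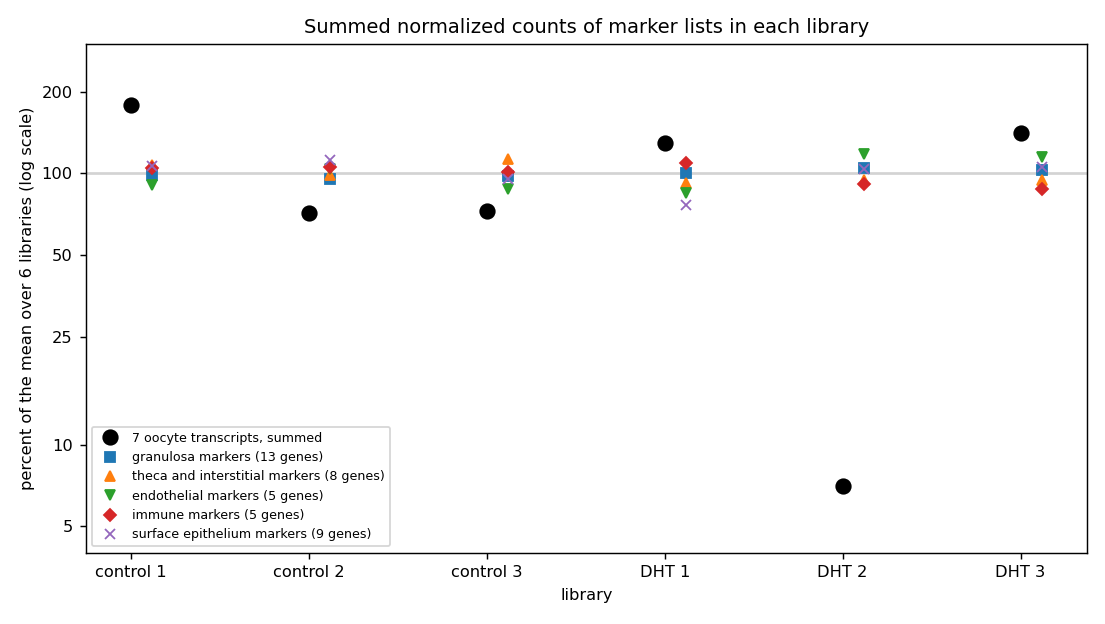
Summed normalized counts of the 7 oocyte transcripts without *Kit* and of 5 lists of somatic markers in each library (horizontal axis), as a percent of their mean over the 6 libraries (vertical axis, log scale). The oocyte transcripts, black circles, spread over the libraries and are far below the rest in DHT replicate 2, where every somatic list stays near 100.

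GCs carry the receptors for the oocyte's growth factors, and their genes were abundant in every library. *Bmpr2*, the type II receptor shared by GDF9 and BMP15, was at 19236 to 22095 in control and 17960 to 19656 in DHT libraries, and its log2 difference was -0.15 (SE 0.06; limma adjusted p = 0.15). *Tgfbr1*, the type I receptor used by GDF9, was at 0.08 (SE 0.05; adjusted p = 0.40). *Bmpr1b*, the type I receptor that BMP15 binds, rose from 4583, 5192 and 5078 in control to 5834, 5834 and 5695 in DHT libraries, by 0.23 on the log2 scale (SE 0.05; adjusted p = 0.019), and was the 1 gene of 12 receptors and SMAD mediators that passed the test, a share near the 6.52% of all tested genes called higher. That call was lost without any single DHT library (adjusted p = 0.059 to 0.080), and in the fit with a replicate block (0.058). All 12 genes were in the table, and none was lowest in DHT replicate 2.

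*Kitl*, the ligand that GCs make for KIT, fell from 12229, 8659 and 10840 in control to 5925, 5952 and 5603 in DHT libraries, without overlap, while its receptor gene *Kit* overlapped between groups. Its log2 difference was -0.85 (SE 0.10; limma adjusted p = 0.0012), and the call held under all 16 alternatives (adjusted p up to 0.033). *Kitl* was level in the 3 DHT libraries, including DHT replicate 2. Of the other granulosa markers, *Hsd17b1*, a steroidogenic enzyme, and *Cyp11a1*, which makes pregnenolone, rose by 0.48 (SE 0.08) and 0.49 (SE 0.09), and *Inha*, the inhibin alpha subunit, fell by 0.61 (SE 0.08). Without the intensity trend the calls of *Hsd17b1* (adjusted p = 0.059) and *Cyp11a1* (0.073) were lost. That of *Cyp11a1* was lost also without DHT replicate 2 (adjusted p = 0.052) or DHT replicate 3 (0.052). *Foxl2*, a transcription factor of GCs, fell by 0.15 (SE 0.04; adjusted p = 0.049), a call that held without control replicate 3 and was lost without each of the other 5 libraries (up to 0.14), with TMM scaling (0.0504) and by DESeq2 (0.076).

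Genes that GDF9 and BMP15 are known to induce in cumulus cells, the GCs next to the oocyte, were examined next, since 1 of them, *Amh*, followed the oocyte transcripts over all 6 libraries and 12 had low correlations with them. All 13 of the list were tested, 3 rose and 0 fell, against 6.52% and 4.66% of all tested genes, and nothing particular to the list is read from 3 of 13. *Has2*, the hyaluronan synthase of cumulus expansion, rose from 273, 569 and 492 in control to 2396, 1957 and 2008 in DHT libraries, by 2.31 on the log2 scale (SE 0.23; limma adjusted p = 0.00040). *Sqle*, an enzyme of cholesterol synthesis, rose by 0.82 (SE 0.05; adjusted p = 6.3e-05), and *Grem1*, a BMP antagonist, by 0.68 (SE 0.15; adjusted p = 0.023), a call lost without DHT replicate 1 (0.067) or DHT replicate 3 (0.059). The levels of these 3 genes in DHT replicate 2, with the fewest oocyte transcripts, lay with those of the other DHT libraries.

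*Amh*, the anti-Müllerian hormone gene of growing follicles, was the gene of that list nearest to the oocyte transcripts over all 6 libraries. It was at 196, 120 and 75.0 in control and at 145, 63.3 and 171 in DHT libraries, and its groups overlapped (log2 difference -0.06, SE 0.41; limma adjusted p = 0.95). Across the 6 libraries its Pearson r with the summed level was 0.846 and its Spearman rho was 0.943. These are descriptions without a test, since the summed level is that of the members chosen on it and *Amh* is the highest of 13 genes compared. Without DHT replicate 2 and control replicate 1, the libraries farthest from the median, r was 0.823 over 4 libraries, and *Sqle* (0.994), *Has2* (0.980) and *Grem1* (0.869) were then higher. As many as 103 of the 12699 genes (0.811%) had an r at least as high. The other 12 genes of the list had r between -0.370 and 0.101 and for several of them, *Has2* included, r changed sign once these libraries were left out. The 4 libraries then left were control replicates 2 and 3, with sums of 352 and 359, and DHT replicates 1 and 3, with 643 and 696. In them, a high r cannot be told apart from a difference between the groups. With 3 libraries of each group, the values over all 6 do not separate treatment from library.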

How the data were processed

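RNA was measured in 3 control and 3 DHT-treated libraries of cultured mouse GCs. Per the study's methods and processing notes, the authors trimmed reads with Trimmomatic 0.36, aligned them to GRCm38 by STAR 2.5.2b and used featureCounts of Subread 1.5.2 to count unique reads on exons. The strand setting is not given in the sources used here. The signal the authors deposited is a normalized count, which is reads over a library's DESeq2 size factor. Columns with the authors' log2 fold change and p-value for each gene were not used here. Groups came from the treatment characteristic.

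Whole reads were recovered from the steps in the values for 100% of values in each library (tolerance 0.001). The main test was limma 3.58.1 (R 4.3.3, intensity trend) on log2(value + 1) for the 16292 genes whose mean reached 10, with Benjamini-Hochberg adjustment. The p-values measure the spread between these libraries. On simulated counts for the 16292 genes with 200 changed, limma recovered 95.0% with 12 false calls, edgeR 4.0.16 96.5% with 12 and DESeq2 1.42.0 95.0% with 19. These percentages are for the 200 genes together. Recovery of differences as small as those of *Foxl2* and *Bmpr1b* was not tested separately.

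The members and all gene lists were chosen with earlier results of these data known. Genes named from the other lists were mainly those with an adjusted p of at most 0.05, the oocyte genes with a mean of at least 50, the most abundant gene of some lists, *Kitl* and the receptors, and the 10 genes most alike in pattern. Some were named outside this rule, among them *Gja1*, *Pecam1*, *Amh*, *Nobox*, *Obox2* and *Obox5*. The remaining theca, interstitial and immune markers were also named outside it. The alternatives were pseudocounts of 0.5 and 8, no filter, a mean of at least 50, TMM and quantile scaling, no trend, edgeR and DESeq2 on recovered reads, a replicate block and each library left out.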

Additional observations from a re-analysis of the deposited data

How the results depend on the processing

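The median log2 difference of the 7 members without *Kit*, -1.33, ranged from -2.19 to 0.46 over 16 alternatives and was positive only without DHT replicate 2. It was -0.25 by edgeR and -0.26 by DESeq2. The DHT mean of their summed level was 86.3% of the control mean, and 63.8% to 129% over 10 alternatives, with 126% without DHT replicate 2 and 129% without control replicate 1. The 1823 genes called over the whole table became 804 without the intensity trend and 937 to 2103 when each library was left out (968 without DHT replicate 2, 937 without DHT replicate 3). The 213 genes past the study's fold threshold as well became 131 with a mean of at least 50 and 140 to 285 when each library was left out, lowest without DHT replicate 3. The 1 call among the 36 other oocyte genes became 0 without the trend, which also ended the calls of *Bmpr1b*, *Foxl2* and *Grem1*, and 0 to 2 when each library was left out. Control and DHT libraries of the same number had correlations of 0.0058, 0.067 and -0.24 in their deviations from the group means. For libraries of different numbers these ran from -0.19 to 0.23. With 3 libraries in each group such correlations cannot tell whether libraries share cells. The fit with a replicate block called 990 genes over the whole table and 0 of the other oocyte genes, and it ended the calls of *Elavl2*, *Bmpr1b*, *Csf1r*, *Foxl2* and *Grem1*. The cause of these changes was not tested. The total of DHT replicate 2, 36111177 reads, was close to the 36240461 of DHT replicate 3, which held 640 reads of the 7 members against 32. Counting error was widest in DHT replicate 2, where 6 members had at most 2 reads and 0 reads were taken as at most 3.27 normalized counts.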

Other observations

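Genes of the intestinal lining, chosen after their values were seen, stood apart in both DHT replicates 2 and 3. *Sis*, the sucrase-isomaltase of enterocytes, was at 40.6, 68.8 and 69.5 normalized counts in control replicates 1, 2 and 3 and at 69.5 in DHT replicate 1, whereas DHT replicate 2 had 0 reads and DHT replicate 3 had 1. *Fabp1*, *Guca2b*, *Rbp2* and *Lyz1* had 84 to 103 reads in the first 4 libraries together and 0 in both of the others, and *Clca4b* had 114 against 0 and 1. DHT replicate 3 was rich in oocyte transcripts, with a summed level of 696, so the libraries low in these genes and in oocyte transcripts were not the same. The source of these reads was not tested.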
